A study of Mus musculus with 12 samples.

Results

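The genes described here are the ionotropic and metabotropic receptors for glutamate and the ionotropic GABA receptors, the 2 main transmitters of the cerebellum, in mouse medulloblastomas of the Sonic hedgehog (SHH) subgroup. Members were chosen by symbol, as array probes annotated to a gene of the AMPA (Gria), NMDA (Grin), kainate (Grik) and metabotropic (Grm) glutamate receptor families or of the GABA (Gabr) receptor families. The rule reads symbols alone, and it was set with earlier results of these data known. It matched 90 probes for 40 symbols, of 45281 probes on the array, and the 34 members described here, with 70 probes, are 23 glutamate and 11 GABA receptor subunits. Gabra2, Gabre and Gabrr3 were not analysed here, as no probe was annotated to them.

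Illumina arrays read RNA of 12 tumours. Mice of the genotype Math1-cre;A1G;Ptch1+/- gave 4 primary (A1G primary) and 4 metastatic tumours (A1G metastatic), and Ptch1+/- mice gave 4 (Ptch1het). All 3 groups thus carried the heterozygous Ptch1 allele, and the A1G allele and the Cre, driven by the Math1 (Atoh1) promoter of granule neuron progenitors, set the A1G groups apart. The study describes these as tumours driven by ATOH1 together with SHH signalling. What A1G stands for, where the metastases grew, the age of the mice and whether replicates came from separate animals are not in the labels. The p-values below therefore rest on the spread among these samples, which may be technical. For metastatic tumours 2 and 3 the genotype label is worded in another way than for 1 and 4. The arrays came on 2 chips of 6, and since the sources do not tie tumours to chips, a chip effect was not tested.

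AMPA, NMDA and kainate receptors are glutamate-gated ion channels built of several subunits, and metabotropic receptors act through G proteins. GABA-A receptors are chloride channels that usually combine alpha and beta subunits with a gamma or delta subunit. SHH medulloblastoma arises from granule neuron progenitors, and as granule neurons mature the NMDA subunit Grin2b gives way to Grin2a and Grin2c, while the GABA-A subunits Gabra6 and Gabrd appear.

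Signals are log2 values after background correction and quantile normalization, and the median of every array lay at 7.05. A probe was tested when it exceeded that median on at least 4 of the 12 arrays, and each gene was read from its probe with the highest mean signal. Levels of different genes are not compared, because each probe has its own brightness. Of the 34 members 19 were tested, 11 of them above the median on all 12 arrays and 8 on 4 to 11 arrays. None of the 19 exceeded the median on arrays of 1 group alone. Of the 15 members not tested, 9 exceeded the median on no array (Gabra5, Gabrr1, Gabrr2, Grin2d, Grin3a, Grm2, Grm3, Grm6 and Grm8) and 6 on 1 to 3 arrays (Gabra6, Gabrg1, Grin1, Grin2a, Grin2c and Grm5). For these 15 the signal of the matching probes was not resolved from that of a typical probe, which does not show that the gene was silent. A further 2 probes, annotated under older names that now belong to Grin3a and Grm6, exceeded the filter but do not match the rule and were not counted.

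The families differed in how many members were readable. All 4 AMPA and all 5 kainate subunits were tested. Of 7 NMDA subunits only Grin2b and Grin3b were tested, and the obligatory subunit Grin1 exceeded the median on 2 arrays. Among metabotropic receptors Grm4 and Grm7 of group III were tested, while both group II receptors (Grm2 and Grm3) and both rho subunits (Gabrr1 and Gabrr2) exceeded the median on no array. Among GABA receptor subunits Gabra3, Gabra4, Gabrb1, Gabrb2, Gabrg3 and Gabrd were tested. GABA receptor genes lie in clusters, and neighbours could fall on both sides of the filter. In the RefSeq annotation Gabra6 and Gabrb2 on chromosome 11, and Gabrg3 and Gabra5 on chromosome 7, have 0 coding genes between them, and Gabrb2 and Gabrg3 were tested while Gabra6 and Gabra5 were not. On chromosome 5 Gabra4 and Gabrb1 were tested and Gabrg1 was not.

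The sequence before the start of transcription is shown for 2 members. Grm7 is the called gene with an entry in the RefSeq promoter table (GRCm38.p6), which held 25 of the 34 symbols, and Gabra6 is the classical subunit of mature granule neurons. Each is printed 5′ to 3′ along its gene, from 250 bases before the annotated start up to it, at chr6:110645262-110645511 (plus strand) for Grm7 and chr11:42321073-42321322 (minus strand) for Gabra6. Capitals mark a match to a searched motif.
Grm7: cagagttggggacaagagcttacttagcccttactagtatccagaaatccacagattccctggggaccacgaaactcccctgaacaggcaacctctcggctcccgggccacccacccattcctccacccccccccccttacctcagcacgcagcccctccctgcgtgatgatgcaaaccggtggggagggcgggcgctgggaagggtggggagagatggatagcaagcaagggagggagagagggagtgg
Gabra6: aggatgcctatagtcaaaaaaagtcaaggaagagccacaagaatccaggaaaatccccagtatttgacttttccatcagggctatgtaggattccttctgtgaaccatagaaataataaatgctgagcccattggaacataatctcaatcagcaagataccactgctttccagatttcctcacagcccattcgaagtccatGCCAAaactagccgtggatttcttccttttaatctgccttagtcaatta
Both strands were searched for the E-box CANNTG, bound by Atoh1 and Neurod1, for the half-site TTGGC of nuclear factor I, a factor family of maturing granule neurons, and for the GLI site GACCACCCA of the SHH pathway. The 1 match was a TTGGC half-site in the Gabra6 window, on the strand opposite to the one printed, where it reads GCCAA. Of 32851 promoter windows of the same length, 66.2% held the E-box, 41.5% the half-site and 0.225% the GLI site. The Grm7 window is rich in G and C (62% against 40.8% in Gabra6) and holds 8 CpG dinucleotides against 2. A match is a description of the letters and does not show binding.

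The first comparison asked how metastatic tumours differed from primary tumours of the same genotype. Grik1 and Grm7 were higher in the metastatic tumours, and Gria1 was lower. The other tested members did not pass. Calls were made with limma at a Benjamini-Hochberg adjusted p under 0.05 over all 16724 genes. Of those genes 4.48% were called higher and 0.741% lower, against 2 and 1 of 19 members. In bulk tumours, fewer cells of a type and less RNA per cell cannot be told apart.

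Gria1, the GluA1 subunit of AMPA receptors (chromosome 11), read 10.43, 11.11, 9.83 and 10.44 in A1G primary tumours 1 to 4. It read 7.22, 8.09, 7.17 and 9.51 in metastatic tumours and 8.05, 10.71, 9.24 and 8.33 in Ptch1het tumours. All metastatic tumours lay below all primary ones, metastatic tumour 4 by a small margin, while Ptch1het tumours spanned both. The difference was -2.45 (SE 0.59, 95% interval -3.74 to -1.17), a 5.48-fold lower signal (adjusted p = 0.0293). The other 3 Gria1 probes differed in the same direction by -1.14, -0.42 and -0.73 and did not pass when each probe was tested. The mean of the Gria1 probes differed by -1.19 (adjusted p = 0.131), and the call was lost without primary 1, 2 or 4 or metastatic 1, 2 or 3 (adjusted p up to 0.0966).

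Metastatic tumour 4 also carried the highest summed signal of oligodendrocyte precursor markers among the metastatic tumours. The 11 markers summed to 13452, 14094, 12911 and 24181 in metastatic tumours 1 to 4 on the linear scale, against 24988 to 33627 in primary and 16964 to 28489 in Ptch1het tumours. Of the 11, 7 were called lower in metastatic tumours. Astrocyte and Bergmann glia markers, of which 1 of 11 was called (Slc1a3, lower), summed to 21137, 22996, 18123 and 46378, again highest in metastatic tumour 4, against 24977 to 52982 in primary and 15431 to 54557 in Ptch1het tumours. The list went both ways, with 6 differences negative and 5 positive, among them Gja1 (1.44, adjusted p = 0.0912) and Sparcl1 (0.99, adjusted p = 0.169). Slc1a3 made up 63.8% to 70.4% of the primary sums, and without it the sums were 8040, 15615, 10273 and 34990 in metastatic, 7383 to 19194 in primary and 4784 to 18130 in Ptch1het tumours. AMPA receptors are also carried by these glial cells, and the part of either cell type in the Gria1 difference was not tested.

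The other AMPA subunits did not pass. Gria2, which limits calcium entry through the channel (chromosome 3), read 12.09, 12.24, 12.89 and 12.45 in primary, 12.06, 11.88, 11.71 and 12.61 in metastatic and 11.46, 9.92, 12.22 and 12.55 in Ptch1het tumours. Primary and metastatic values overlapped (difference -0.35, 95% interval -1.33 to 0.63, adjusted p = 0.74), and Ptch1het 2 stood apart as the lowest array. Gria4 differed by -0.18 (adjusted p = 0.736), and a second Gria4 probe of like signal by -0.63 (adjusted p = 0.443 when each probe was tested). Gria3 read 10.11, 9.74, 9.63 and 9.69 in primary, 9.90, 9.58, 9.88 and 9.86 in metastatic and 10.30, 10.28, 10.21 and 10.08 in Ptch1het tumours. Its metastatic and primary values overlapped (difference 0.02, 95% interval -0.28 to 0.31).

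Grik1, the GluK1 kainate subunit that is also known from sensory neurons (chromosome 16), read 8.34, 8.58, 8.57 and 8.32 in primary and 9.59, 10.66, 9.35 and 9.33 in metastatic tumours. Its Ptch1het values were 8.27, 7.58, 8.60 and 7.53. All metastatic tumours lay above all 8 others, and metastatic tumour 2 was the highest. The difference was 1.28 (SE 0.30, 95% interval 0.63 to 1.94), 2.43-fold (adjusted p = 0.0254). This probe is annotated to transcript variant 2. Of the other 5 Grik1 probes, 1 exceeded the median on all 4 metastatic, 0 primary and 1 Ptch1het arrays. It differed by 0.62 and did not pass (adjusted p = 0.0625 in limma when each probe was tested). A further probe, near the median, differed by -0.06. The last 3 differed by -0.05, 0.23 and 0.06, and exceeded the median on 0, 1 and 0 metastatic arrays and on no primary array. The call was lost without any 1 of the 4 primary tumours (adjusted p from 0.0526 to 0.0723) and with the mean of the probes (difference 0.62, adjusted p = 0.0993).

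Grm7, a presynaptic group III receptor that lowers transmitter release (chromosome 6, promoter above), read 7.08, 6.93, 6.98 and 7.63 in primary tumours, 2 of them above the median. It read 8.35, 9.08, 8.56 and 8.92 in metastatic tumours and 6.64, 6.33, 6.85 and 7.17 in Ptch1het tumours, where 1 exceeded the median. No metastatic value overlapped with any of the 8 others. The difference was 1.57 (SE 0.22, 95% interval 1.09 to 2.05), 2.98-fold (adjusted p = 0.000808), and the call was kept under each of the alternatives computed. The mean of the probes could not change it, since only this Grm7 probe passed the filter and the difference stayed at 1.57. A second Grm7 probe was above the median on 3 metastatic arrays and no others, and differed by 0.66. The last 2 did not rise. One exceeded the median on 1 primary and 2 Ptch1het arrays and differed by -0.01, the other on 1 primary array and differed by -0.07.

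**Figure D1:**
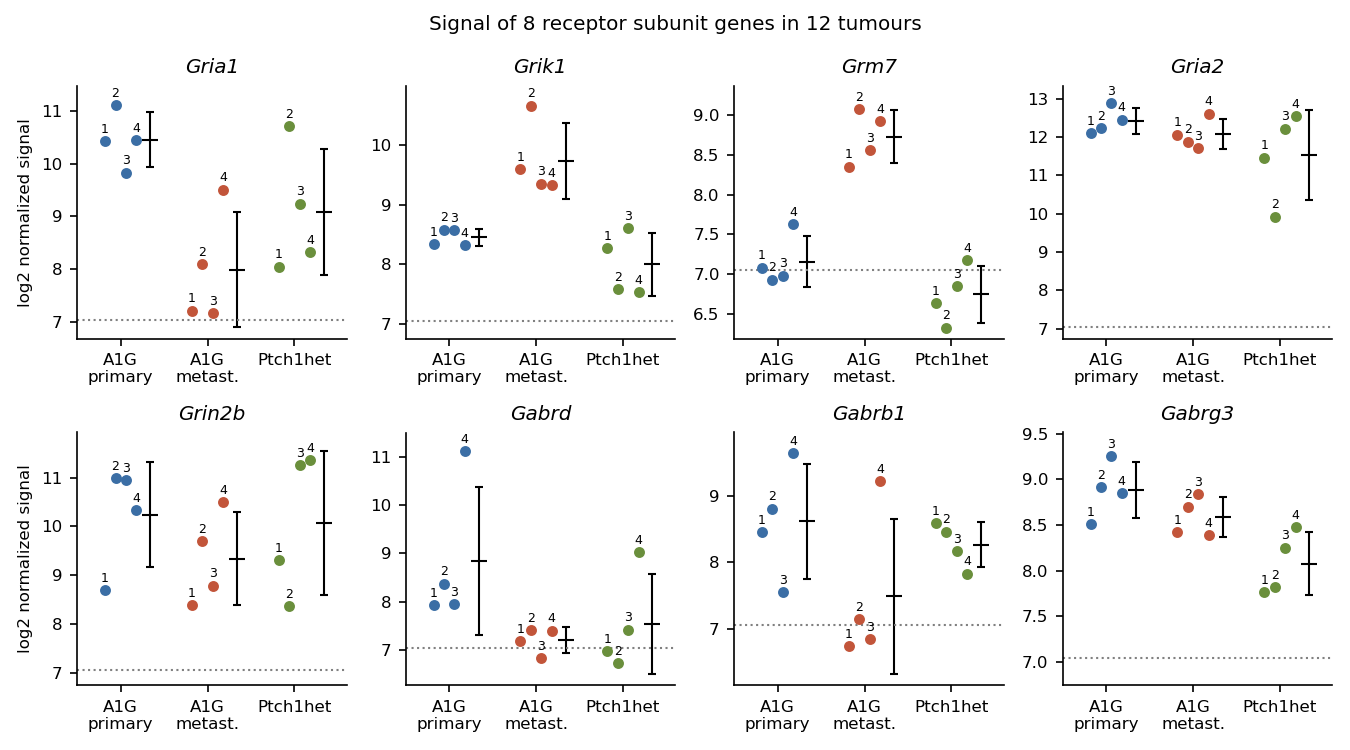
Log2 normalized signal (vertical axes, each with its own range) of 8 receptor genes in A1G primary, A1G metastatic and Ptch1het tumours. Points are single arrays with their replicate number, black bars are the mean and SD (n = 4), and the dotted line is the array median of 7.05. Grik1 and Grm7 are highest in the 4 metastatic tumours, Gria1 is lower there than in all primary tumours, Gria2 is lowest in Ptch1het tumour 2 and Gabrd is highest in A1G primary tumour 4.

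Markers of peripheral cells moved with the rise of Grik1 and Grm7. Of 10 tested sensory neuron markers all 10 were called higher in metastatic tumours, and their summed signal was 37141, 58154, 34806 and 24371 in metastatic tumours 1 to 4 against 1243 to 1781 in primary and 2263 to 4554 in Ptch1het tumours. Pou4f1, which is also lower in metastatic than in Ptch1het tumours (difference -1.34, adjusted p = 0.0367), made up 42.4% to 60.1% of the Ptch1het sums, and without it these were 1107 to 2377. Metastatic tumour 2, with the highest sum, also had the highest Grik1 and Grm7. Metastatic tumour 4, with the lowest sum, had the lowest Grik1 but the second highest Grm7. Of 7 tested Schwann cell markers 6 were called higher (12888 to 16181 in metastatic, 1191 to 1555 in primary, 986 to 1427 in Ptch1het tumours), as were 7 of 9 Hox genes of spinal cord and hindbrain (4926 to 8300, 780 to 929 and 888 to 949). These counts lean on the filter, since 7 of the 10 sensory neuron genes, 4 of the 6 Schwann cell genes and all 7 Hox genes exceeded the median on fewer than 4 of the 8 other arrays and so were tested only through the metastatic ones. Grm7 itself exceeded it on 3 of those 8. The part of these cells in the Grik1 and Grm7 differences was not tested.

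**Figure D2:**
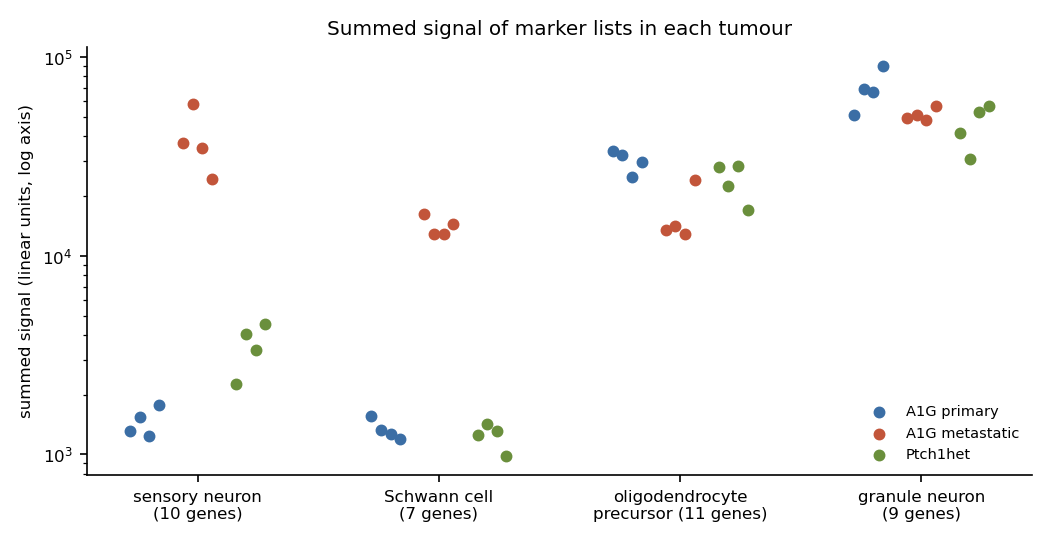
Summed linear signal (log axis) of the tested genes of 4 marker lists, with 1 point per array. Sensory neuron and Schwann cell sums are higher in all 4 metastatic tumours than in the 8 others, oligodendrocyte precursor sums are lower in metastatic tumours 1 to 3, and granule neuron sums are highest in A1G primary tumour 4 and lowest in Ptch1het tumour 2.

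The probes of a called gene did not all move alike. For each of the 3 genes the brightest probe showed the difference of largest size, and the other probes differed less. The reason was not tested. Whether the probes of a gene read different transcripts was not tested. The Grik1 probe at -0.06 that passed the filter lay near the median, and so did the Grik1 probe at 0.62.

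**Figure D3:**
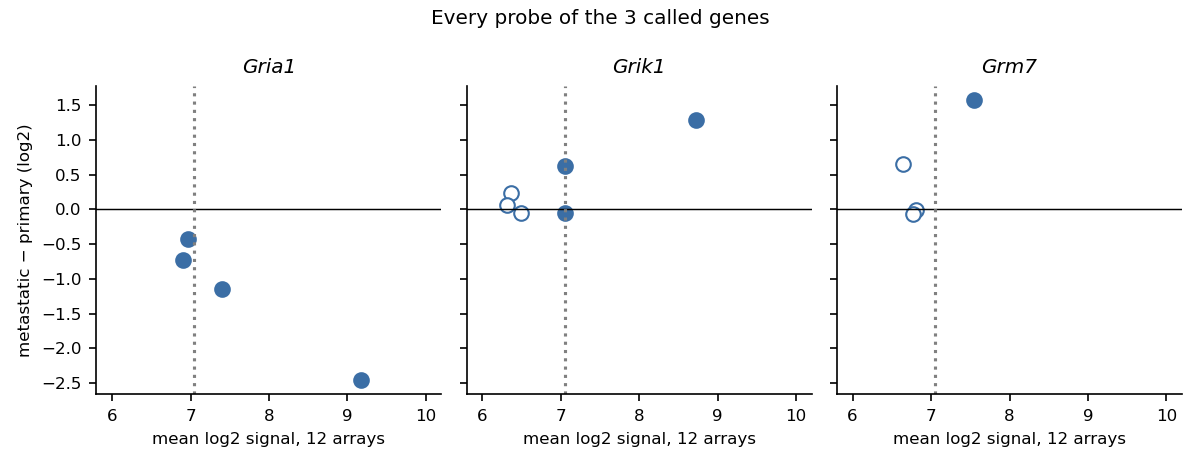
Metastatic minus primary difference (log2) of every probe of the 3 called genes against its mean log2 signal over 12 arrays. Filled points passed the filter, open points did not, and the dotted line is the array median. In each panel the brightest probe lies farthest from 0, at -2.45 for Gria1, 1.28 for Grik1 and 1.57 for Grm7.

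The remaining kainate subunits did not pass. Grik2, a kainate subunit of granule cells, ranged from 10.27 to 11.14 in primary and from 9.38 to 10.27 in metastatic tumours (difference -0.74, adjusted p = 0.22). A second Grik2 probe, above the median on all 12 arrays, differed by -0.14 (adjusted p = 0.703 in limma when each probe was tested). Grik4 read 7.66, 7.37, 7.39 and 7.64 in primary, 7.62, 7.55, 7.57 and 7.60 in metastatic and 7.31, 7.65, 6.96 and 7.19 in Ptch1het tumours. It was the next highest difference after Grm7 and Grik1, at 0.07 (adjusted p = 0.857), and its interval spans 0. Grik3 (-0.22) and Grik5 (-0.37) did not pass.

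Of 6 tested GABA receptor subunits 0 passed in limma in this comparison, and 1 had an unadjusted p under 0.05 (Gabrd, 0.0259). All 6 differences were negative, with a median of -0.26. Among probes of these genes that did not pass the filter, Gabrg3 differed by 0.43 and Gabrb2 by -0.05 and 0.06. The median over all 16724 genes was -0.06, and 9933 of them were negative. Over all 19 members, 15 differences were negative, with a median of -0.22.

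Gabrd, the delta subunit of extrasynaptic receptors that carry tonic inhibition in granule cells (chromosome 4), read 7.93, 8.37, 7.95 and 11.12 in primary and 7.18, 7.40, 6.83 and 7.40 in metastatic tumours. In Ptch1het tumours it read 6.97, 6.73, 7.42 and 9.02. The metastatic values lay below all primary ones and close to the array median, and primary tumour 4 stood far above the others. The difference was -1.64 (95% interval -3.05 to -0.23, adjusted p = 0.204) and -0.88 without primary 4 (adjusted p = 0.358). A second Gabrd probe differed by -2.08.

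Gabrb1, a beta subunit (chromosome 5), read 8.46, 8.81, 7.55 and 9.64 in primary, 6.74, 7.14, 6.84 and 9.22 in metastatic and 8.59, 8.46, 8.17 and 7.83 in Ptch1het tumours. Metastatic tumours 1 to 3 lay below every other array and metastatic tumour 4 above all but 1. The difference was -1.13 (95% interval -2.26 to 0.003, adjusted p = 0.283). Without metastatic 4 it was -1.70 (adjusted p = 0.0244), and its adjusted p was 0.029 when primary and metastatic tumours of the same number were paired in a fit of the 8 A1G arrays alone. That paired fit, chosen after seeing the data, called 2 members lower (Gria1 and Gabrb1) and the same 2 higher. Gabra4, the neighbour of Gabrb1 on chromosome 5, read 7.31, 7.57, 7.46 and 7.49 in primary, 7.16, 7.30, 7.16 and 7.56 in metastatic and 7.63, 7.71, 7.37 and 7.22 in Ptch1het tumours (difference -0.16, adjusted p = 0.619).

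**Figure D4:**
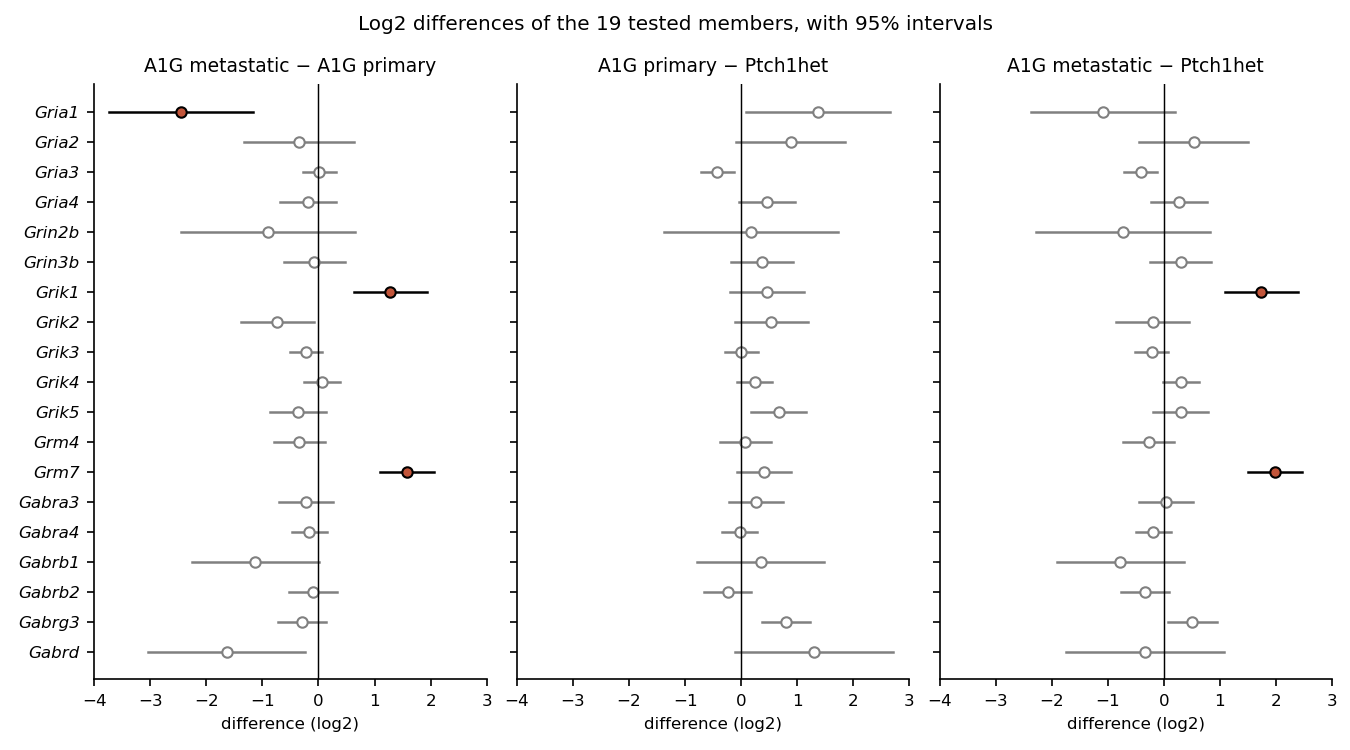
Log2 differences (horizontal axis) of the 19 tested members in 3 comparisons, with 95% intervals. Filled points are called at an adjusted p under 0.05 and open points are not. In metastatic minus primary 15 of 19 points lie left of 0, in primary minus Ptch1het 16 of 19 lie right of 0 with none called, and these comparisons share the A1G primary arrays.

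Subunits of immature and mature granule neurons were set side by side. Both tested subunits of the immature list exceeded the array median in every tumour. That list also holds Gabra2, which had no annotated probe. Grin2b, the NMDA subunit of young neurons, read 8.69, 10.99, 10.94 and 10.34 in primary, 8.38, 9.69, 8.79 and 10.50 in metastatic and 9.31, 8.36, 11.26 and 11.36 in Ptch1het tumours. It varied by more than 2 log2 units within each group, the groups overlapped, and the metastatic minus primary difference was -0.90 (95% interval -2.45 to 0.65, adjusted p = 0.567). Further Grin2b probes exceeded the median on no array and differed by 0.04 and 0.17. Gabra3 (chromosome X) read 7.69, 8.28, 7.92 and 8.38 in primary, 7.38, 7.85, 8.15 and 8.01 in metastatic and 7.89, 7.46, 7.63 and 8.25 in Ptch1het tumours (difference -0.22, adjusted p = 0.662).

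Of 6 subunits of the mature list 3 were tested, and 0 passed in limma in any comparison (1 had an unadjusted p under 0.05, Gabrd in metastatic minus primary). Besides Gabrd they were Gabrb2 and Grm4. Gabrb2 stayed near the median, at 6.56, 6.40, 7.02 and 7.11 in primary, 6.56, 6.48, 7.08 and 6.59 in metastatic and 6.96, 6.71, 7.27 and 7.11 in Ptch1het tumours. Grm4, the presynaptic receptor of parallel fibres, read 7.28, 6.62, 6.71 and 7.45 in primary, 6.80, 6.48, 6.49 and 6.94 in metastatic and 6.76, 7.12, 6.66 and 7.23 in Ptch1het tumours. The 3 groups overlapped for both.

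The other 3 mature subunits were not tested. Gabra6 (promoter above) read 6.43, 5.86, 6.42 and 8.54 in primary, 6.13, 5.90, 6.25 and 6.28 in metastatic and 6.20, 6.06, 6.17 and 7.10 in Ptch1het tumours. Grin2c read 6.54, 6.97, 6.47 and 7.61 in primary, 6.89, 6.75, 6.87 and 6.91 in metastatic and 6.34, 6.92, 6.95 and 7.83 in Ptch1het tumours. Gabra6 and Grin2c thus exceeded the median in the same 2 tumours, A1G primary 4 and Ptch1het 4, which also had the highest Gabrd signals of their groups. Grin2a did so in others, reading 7.11 in A1G primary 3 and 7.22 in Ptch1het 3 and 6.46 to 6.93 in the other 10.

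Single tumours set much of the spread. A1G primary 4 was the highest of the 12 arrays for 6 of 19 members (31.6%, against 7.79% of all genes), namely Gabra3, Gabrb1, Gabrd, Grik2, Grik5 and Grm4. Its granule neuron markers summed to 89851, against 51407 to 69303 in the other primary tumours. A1G metastatic 1 was the lowest array for 4 of 19 members (21.1%, against 9.75% of all genes), namely Gabra3, Gabra4, Gabrb1 and Grin3b. Ptch1het 2 was the lowest array for 5 of 19 members (26.3%, against 10.4% of all genes), namely Gabrd, Gria2, Grik2, Grin2b and Grm7. Its granule neuron markers summed to 30554, the lowest of all arrays, while its Gria1 signal of 10.71 was the highest of its group. Its astrocyte and Bergmann glia markers summed to 54557, the highest of all arrays. Without Slc1a3 that sum was 18130, below metastatic tumour 4 (34990) and A1G primary 2 (19194). Between metastatic and primary tumours 0 of 9 granule neuron markers and 0 of 6 granule progenitor markers were called in limma, and 1 and 0 of them had an unadjusted p under 0.05. All 9 granule neuron differences were negative, with a median of -0.40, as were 5 of the 6 progenitor differences (median -0.23). In primary minus Ptch1het 7 of the 9 were positive (median 0.54), as were 5 of the 6 (median 0.21), with 0 called. Of 8 Purkinje cell and interneuron markers, 3 were tested and 0 called (1 was higher at an unadjusted p under 0.05). Atoh1, Gli1, Mycn, Tubb3, Snap25, Cbln3, Calb1, Car8, Pax2 and Pnoc exceeded the median on no array.

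**Figure D5:**
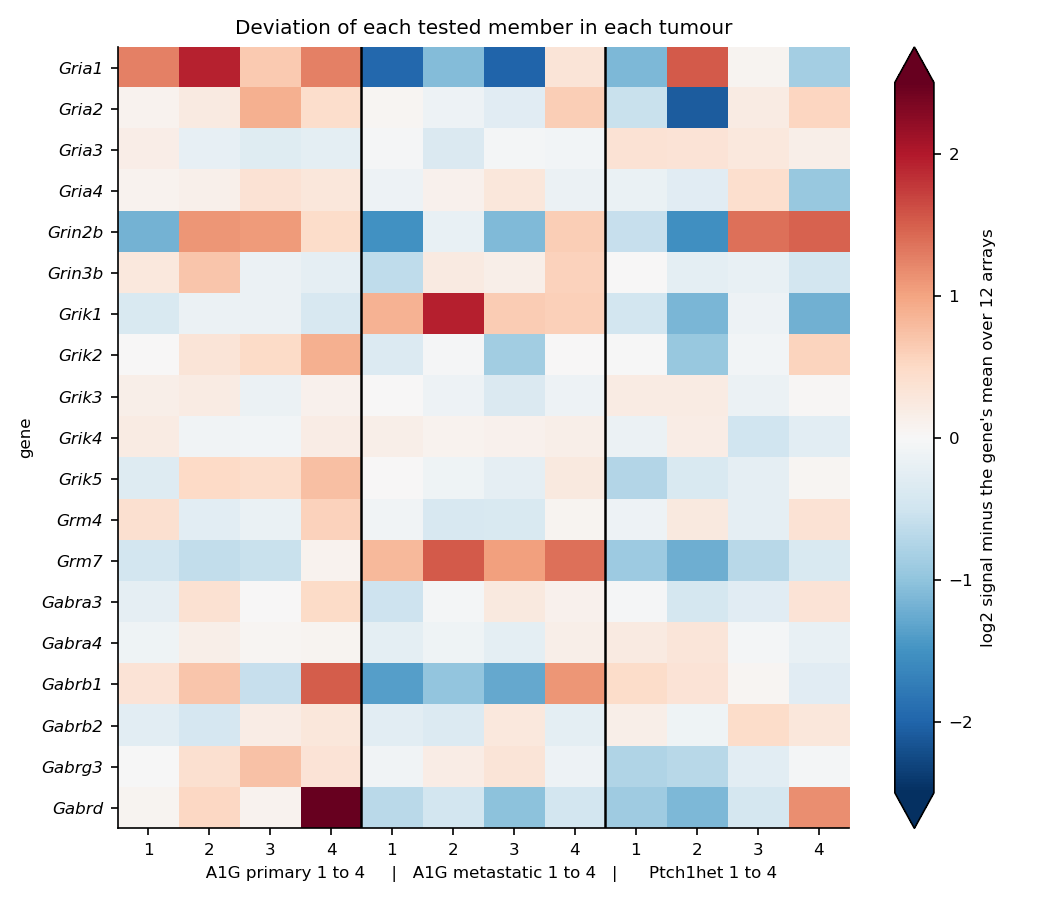
Log2 signal of the 19 tested members (rows) in the 12 arrays (columns, by group and replicate) as deviation from the mean of each gene. The colour range ends at 2.5 in either direction, and deviations beyond it take the end colour. The dark blue cell of Ptch1het 2 in Gria2, the dark red cell of A1G primary 4 in Gabrd and the red block of Grik1 and Grm7 in metastatic tumours stand out.

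The second comparison asked how primary tumours with the A1G allele differed from Ptch1het tumours. In limma 0 of 19 members passed, where 0.00598% of all genes were called higher and 0.0299% lower. Unadjusted p-values under 0.05 were reached by 3 members that were higher (Gria1, Gabrg3 and Grik5) and 1 that was lower (Gria3). The median difference was 0.37 over the members, 16 of 19 positive, and -0.03 over all genes. This comparison shares the primary arrays with the first, so the 2 medians are not independent.

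The highest differences were those of Gria1 (1.37, 95% interval 0.08 to 2.65, adjusted p = 0.354), Gabrd (1.30, adjusted p = 0.402) and Gria2 (0.88, adjusted p = 0.414). Gabrd fell to 0.54 without primary 4 and Gria2 to 0.34 without Ptch1het 2. Gabrg3 was not refitted with tumours left out. It ranged from 8.51 to 9.25 in primary and from 7.76 to 8.48 in Ptch1het tumours without overlap (difference 0.81, 95% interval 0.37 to 1.24, unadjusted p = 0.00146, adjusted p = 0.165). A second Gabrg3 probe, above the median on no array, differed by -0.17.

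The lowest differences were those of Gria3 (-0.43, 95% interval -0.72 to -0.13, unadjusted p = 0.00781, adjusted p = 0.247), Gabrb2 (-0.24, adjusted p = 0.616) and Gabra4 (-0.03, adjusted p = 0.962). Grik1 (0.46) and Grm7 (0.41) did not pass. The interval of Grm7 (-0.07 to 0.89) leaves differences of a size below 1 log2 unit possible.

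In the secondary comparison of metastatic against Ptch1het tumours, genotype and kind of tumour both differ, and it shares arrays with each of the others. Grik1 and Grm7 were higher, 2 of 19 members, against 6.17% of all genes called higher. In limma 0 of 19 were called lower, against 3.68% of all genes, and 1 was lower at an unadjusted p under 0.05 (Gria3). Grm7 differed by 1.98 (SE 0.22, adjusted p = 0.00012) and Grik1 by 1.74 (SE 0.30, 3.34-fold, adjusted p = 0.00358). Neither call was lost under any of the alternatives computed, though for Grm7 the mean of the probes was the same single probe. The other Grm7 probes, which did not pass the filter, differed by 0.70, 0.03 and -0.34.

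Gria1 was not called here (-1.09, 95% interval -2.37 to 0.20, adjusted p = 0.254). The groups overlapped, as Ptch1het tumours 1 and 4 lay near metastatic tumour 2 and Ptch1het 2 near the primary tumours. The highest difference after Grm7 and Grik1 was that of Gria2 (0.53, adjusted p = 0.474, and -0.00842 without Ptch1het 2). Gabrb1 differed by -0.78 (adjusted p = 0.356) and Grin2b by -0.73 (adjusted p = 0.539). Gria3 was lower in all 4 metastatic than in all 4 Ptch1het tumours (-0.41, adjusted p = 0.0726). The median over the 19 members was -0.19, with 9 positive and 10 negative, and over all genes -0.08.

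Proteins that work with these receptors were listed as auxiliary subunits, scaffolds and transmitter handling, 51 genes of which 39 were tested. Between metastatic and primary tumours 4 were called lower and 0 higher in limma, against 0.741% and 4.48% of all genes, and at an unadjusted p under 0.05 there were 8 lower and 1 higher. Cacng4, an auxiliary subunit that escorts AMPA receptors, ranged from 8.21 to 9.16 in primary and from 6.89 to 7.60 in metastatic tumours (difference -1.38, adjusted p = 0.00414). Cacng7, of the same family, ranged from 7.95 to 8.13 and from 6.95 to 7.44 (difference -0.91, adjusted p = 0.00219). Neither gene overlapped between the groups. The oligodendrocyte precursor markers, 7 of 11 called lower and all 11 negative, moved in the same direction, and their part in these differences was not tested.

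Dlg4, the postsynaptic scaffold PSD-95, ranged from 8.64 to 8.87 in primary and from 7.51 to 8.02 in metastatic tumours (difference -0.97, adjusted p = 0.0236). Slc1a3, the glutamate transporter of Bergmann glia and the same gene as the called astrocyte marker, ranged from 14.10 to 15.04 and from 12.85 to 13.68 (difference -1.32, adjusted p = 0.0415). In metastatic against Ptch1het tumours these 4 were also lower (adjusted p = 0.0249, 0.000267, 0.039 and 0.0454 in the order named), joined by the GABA transporter Slc6a11 (-1.52, adjusted p = 0.0322). Between primary and Ptch1het tumours 0 of 39 passed in limma, and 5 had an unadjusted p under 0.05, 3 higher and 2 lower.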

How the data were processed

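RNA of 12 tumours was hybridised to Illumina arrays. Per the file headers the deposited values are intensity on a linear scale for 45281 probes, and from the values the authors had equalised the array medians without subtracting background. How they did so is not stated in the labels. A second deposited table holds 24 per-array columns whose names match no sample label, so only its probe annotation was used.

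The intensities were background corrected (normexp, offset 50), quantile normalized and put on the log2 scale with limma 3.58.1 (R 4.3.3). After the filter, 24443 probes and 16724 genes remained. One model with 3 groups was fitted to 12 arrays (lmFit, eBayes; Benjamini-Hochberg over all genes). The members, the lists of immature and mature subunits, partners and markers, and the naming rule were chosen with earlier results of these data known.

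Genes named with every value were called members, the immature and mature lists, and the 3 highest and 3 lowest differences per comparison. Gabrg3 and Grik2 were added after their values were seen. Some genes that match the rule are not reported here, and counts of members cover the others. Replicate numbers were checked as pairs by correlating deviations from the group means. A1G primary and metastatic tumours of the same number correlated at 0.45, 0.17, 0.21 and 0.27, all positive. The fit behind the reported values has no pairs, and pairing entered as alternatives. Ptch1het tumours 1 to 4 correlated at 0.17, -0.01, 0.08 and 0.34 with primary tumours of the same number. With metastatic tumours they correlated at 0.04, 0.01, -0.07 and 0.08. Some of the values with primary tumours thus reach the size of those between the A1G groups. Alternatives covered normalization, filter, probe choice, samples in the fit, pairing and each array left out. The number of arrays limits the precision.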

Additional observations from a re-analysis of the deposited data

Results flagged for a closer look

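Among 39 groups of 4 tumours (13 named members in 3 groups), 4 held a tumour far from the others by Dixon's test, where chance gives about 1 in 20 groups. Gabrd read 11.12 in A1G primary tumour 4 and 7.93 to 8.37 in the other primary tumours. Gabrb1 read 9.22 in metastatic tumour 4 and 6.74 to 7.14 in the other metastatic tumours. Gria3 read 9.58 in metastatic tumour 2, below the other metastatic tumours at 9.86 to 9.90. Gabrb2 read 7.08 in metastatic tumour 3 and 6.48 to 6.59 in the others, all near the array median.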

How the results depend on the processing

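Over 21 alternatives, 455 of 489 differences of named members kept their direction and their side of the threshold, 14 lost the call, 2 gained it and 18 changed sign. Of 96 counts of called members 80 stayed within 1.5 times. Grm7 was called in both comparisons with metastatic tumours, and Grik1 in metastatic minus Ptch1het, in each setting computed. The mean of the probes could not change the Grm7 result, since a single Grm7 probe passed the filter. The log2 scale of the deposited values kept 6 of 6 GABA receptor subunits and 15 of 19 members negative in metastatic minus primary.

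With the mean of the probes of a gene, 1 member was higher and 0 lower in metastatic minus primary. With metastatic tumours 1 and 4 alone these counts were also 1 and 0, and adjusted p-values in metastatic minus primary were 0.268 for Gria1 and 0.124 for Grik1. With 1 array left out, 1 to 2 members were higher and 0 to 2 lower in metastatic minus primary.

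A replicate block over all 12 arrays gave 2 higher members and 1 lower member in metastatic minus primary and changed no call. The paired fit of the 8 A1G arrays, added after seeing the data, gave 2 higher and 2 lower.

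The sign changes were in uncalled differences. With 1 array left out, primary minus Ptch1het ranged from -0.0725 to 0.20 for Grm4, from -0.11 to 0.0507 for Gabra4 and from -0.40 to 0.69 for Grin2b. Metastatic minus Ptch1het ranged from -0.0741 to 0.20 for Gabra3, from -0.00842 to 0.87 for Gria2 and from -0.60 to 0.16 for Gabrd, and metastatic minus primary from -0.23 to 0.0185 for Gabrb2. Gabra3 read -0.11 in metastatic minus Ptch1het with metastatic tumours 1 and 4 alone. The cause of these changes was not tested. Where an array was left out, fewer samples entered the fit. Signals of the matching probes near or below the array median limit what could be read for 15 members, though Grin3a and Grm6 have brighter probes under older names.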
